A study of Rattus norvegicus with 24 samples.

Results

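The 10 genes described here carry glucose into the muscle fibre and turn it into glycogen or lactate. They are Slc2a4, Hk2, Pfkm, Pfkfb3, Ldha, Gys1, Gbe1, Pygm, Pgm1 and Ppp1r3c, chosen by gene symbol from the 21067 genes of the deposited table. All 10 were present and all 10 passed the filter on low values, a mean FPKM (fragments scaled for transcript length and library size) of at least 0.1, which left 14772 genes for testing. RNA came from the quadriceps femoris of 24 Sprague-Dawley rats, 1 library per rat and 6 per group. Rats were 6 weeks old on arrival, and by the study's methods each group was split evenly between males and females. The control rats had normal feeding without treadmill training. The treadmill rats trained for 7 weeks, 20 min a day at weekly speeds rising from 15 to 35 m/min, and then ran to exhaustion. Both catgut groups had an absorbable collagen thread embedded at acupoints (Bai Hui, Qiang Feng, Yang Wa, Xie Qi, Qian Shen and Han Gou) and 1 week of recovery before this same training and exhausting run, and catgut group 2 had the acupoint Fei Shu in addition to those of catgut group 1. No group had thread without training, so an effect of the thread alone could not be measured. Muscle was taken after the last session, and the trained groups differ from the control group in both training and the exhausting run.

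In resting and working muscle, GLUT4 moves to the cell surface in response to insulin and contraction and lets glucose in, and hexokinase traps it as glucose 6-phosphate. That product is either burned through glycolysis, which phosphofructokinase controls, or stored as glycogen by synthase and branching enzyme. During hard exercise phosphorylase releases the stored glucose, and lactate dehydrogenase regenerates the cofactor that keeps glycolysis running.

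The promoters of 9 of the 10 genes were matched in RefSeq (GRCr8), each a window of 300 bases around the annotated start. Those of Pfkfb3, Gbe1 and Ldha are shown. Pfkfb3 had the largest differences between groups among the 10 genes, and Gbe1 had 1 pair of groups that did not overlap. Ldha is a textbook target of the factors that bind the marked letters. Capitals mark ACGTG on either strand, the core of the hypoxia response element, and include the E-box CACGTG where both strands match.
Pfkfb3: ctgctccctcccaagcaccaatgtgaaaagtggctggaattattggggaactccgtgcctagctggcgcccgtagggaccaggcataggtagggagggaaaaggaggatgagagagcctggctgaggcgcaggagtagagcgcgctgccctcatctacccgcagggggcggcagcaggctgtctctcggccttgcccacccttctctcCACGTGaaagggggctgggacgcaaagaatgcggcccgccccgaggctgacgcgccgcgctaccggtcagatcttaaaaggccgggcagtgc
Gbe1: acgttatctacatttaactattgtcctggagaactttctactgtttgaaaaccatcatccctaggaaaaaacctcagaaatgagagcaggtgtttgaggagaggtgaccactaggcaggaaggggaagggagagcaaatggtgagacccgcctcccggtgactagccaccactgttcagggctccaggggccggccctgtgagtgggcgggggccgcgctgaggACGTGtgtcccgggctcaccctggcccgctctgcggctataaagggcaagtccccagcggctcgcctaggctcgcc
Ldha: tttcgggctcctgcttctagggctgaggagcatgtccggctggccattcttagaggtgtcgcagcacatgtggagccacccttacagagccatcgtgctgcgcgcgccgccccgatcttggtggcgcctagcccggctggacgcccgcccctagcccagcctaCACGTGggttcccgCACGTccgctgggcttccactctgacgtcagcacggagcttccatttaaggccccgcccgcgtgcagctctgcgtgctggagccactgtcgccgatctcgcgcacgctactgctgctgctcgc
They lie on the + strand at chr17:71944683-71944982, chr11:22181026-22181325 and chr1:106507842-106508141. ACGTG was found on either strand in 7 of the 9 promoters, all but those of Gys1 and Hk2, against 19.3% of the 33469 rat promoters of this length. The overlapping CACGTG was found in Ldha, Pfkfb3 and Ppp1r3c, against 6.42% of all promoters. The MEF2 consensus was found in 0 of the 9, against 3.29%. These are matches of letters in a short window and say nothing about binding.

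Libraries held between 45945938 and 78278080 counts in all. The markers of skeletal muscle, 6 of 7 in the table, summed to between 46725 and 68273 FPKM, and none of the 6 was at 0 in any library. Markers of other cells were not even. The 8 slow-fibre markers summed to between 16.5 and 4791 FPKM over the libraries. The 8 liver markers, near 0 in most libraries, reached 201 FPKM in control replicate 2, 23.6 FPKM in treadmill replicate 2 and 311 FPKM in treadmill replicate 3. Y-linked genes were at 1 FPKM or more in 3 of 6 libraries of the control, treadmill and catgut 1 groups and in 2 of 6 of catgut group 2. Control replicate 4 had the lowest median correlation with the other libraries across genes, 0.961.

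Measured per length, the means of the 10 genes ran from 19.2 to 3927 FPKM. Pygm had the highest mean, 3927 FPKM, and ranked 23rd of the genes tested. Ldha (1838 FPKM) and Pfkm (1709.5 FPKM) were next, their ranges over the libraries overlapped (1312 to 2240 and 1420 to 1923 FPKM), and Pgm1 followed at 724 FPKM. Slc2a4 (229 FPKM) came before Ppp1r3c (133 FPKM), which its range overlapped, and Gys1 (104 FPKM), which it did not, and Ppp1r3c and Gys1 overlapped. Pfkfb3 (35.6 FPKM), Hk2 (20.7 FPKM) and Gbe1 (19.2 FPKM) had the lowest means, with ranges that overlapped, and the range of Pfkfb3 also overlapped those of Gys1 and Ppp1r3c. Pfkfb3 also varied most between libraries, from 7.52 to 117 FPKM with a coefficient of variation of 78.4%, whereas Pfkm varied least, at 8.42%. The lowest count of any of the 10 genes in any library was 1987, so counting error is small beside the differences between rats.

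**Figure D1:**
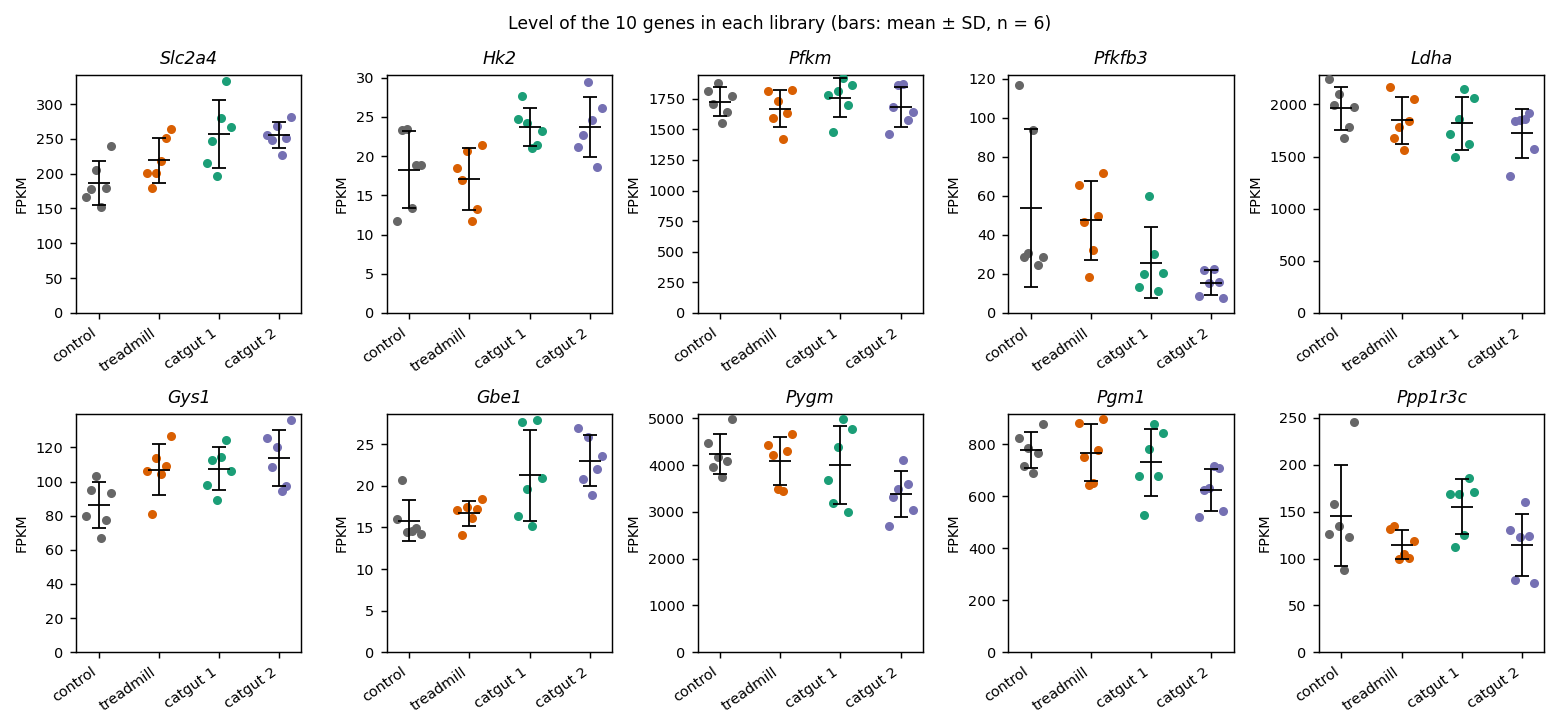
FPKM of each gene (vertical axes, from 0) in the 6 libraries of each group, with the mean and SD over 6 libraries as black bars. Pfkfb3 in catgut group 2 sits between 7.52 and 22.6 FPKM, below all control libraries, while Pfkm and Ldha overlap in all groups.

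Pfkfb3 was lower after catgut with training than after training alone or without training, and it was the 1 gene of the 10 that met the study's criterion for differentially expressed genes (DEGs). That criterion is a ratio of mean FPKM over 1.5 or under its inverse, with an unadjusted p under 0.05. The gene met it in catgut 1 and catgut 2 against treadmill and in both catgut groups against control. Around it, Slc2a4, Gys1 and Gbe1 had higher means in the catgut groups than in the control group, the Gys1 mean of the treadmill group (107 FPKM) being close to that of catgut group 1 (108 FPKM). Hk2 had higher means in the catgut groups than in the treadmill group, and Pygm and Pgm1 had lower means in catgut group 2, by under 1.5-fold each. No gene of the 10 had an adjusted p under 0.05 in any of the 6 comparisons by edgeR's two-sided quasi-likelihood test with Benjamini-Hochberg adjustment over the genes tested.

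These counts use the edgeR p. In treadmill against control, 0 of the 10 genes had an unadjusted p under 0.05, against 9.12% of all genes tested, and 0 met the DEG criterion, against 2.85%. In catgut 1 against treadmill, 3 genes had an unadjusted p under 0.05 (background 6.93%) and 1 met the DEG criterion (3.12%). In catgut 2 against treadmill, the counts were 5 (background 10.7%) and 1 (3.76%). Catgut 2 against catgut 1 gave 1 gene with an unadjusted p under 0.05 (background 3.26%) and 0 DEGs (1.25%). In catgut 1 against control the counts were 4 (background 9.84%) and 1 (4.62%), and in catgut 2 against control 6 (background 16.4%) and 1 (5.95%). An adjusted p under 0.05 was reached by 0.0542%, 0.0474%, 0.237%, 0.00677%, 0.0203% and 0.508% of all genes in these 6 comparisons, in the same order, and by 0 of the 10. Groups that did not overlap in FPKM were found for 0, 0, 1, 0, 0 and 1 of the 10 genes (Gbe1 in catgut 2 against treadmill and Pfkfb3 in catgut 2 against control), beside 0.447%, 0.413%, 1.04%, 0.162%, 0.393% and 1.09% of all genes. In 1 test of any difference among the 4 groups, Pfkfb3 (adjusted p = 0.113 by edgeR) and Gbe1 (adjusted p = 0.188) came closest. These 2, Hk2 and Slc2a4 had an unadjusted p under 0.05 in it, as did 13% of all genes, and 0.379% of all genes had an adjusted p under 0.05. The comparisons share libraries, so the counts are not separate evidence. The 10 genes were chosen with earlier results of these data known, so the counts cannot show that they differ more often than other genes. In bulk muscle, fewer cells of a type and less RNA per cell cannot be told apart.

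**Figure D2:**
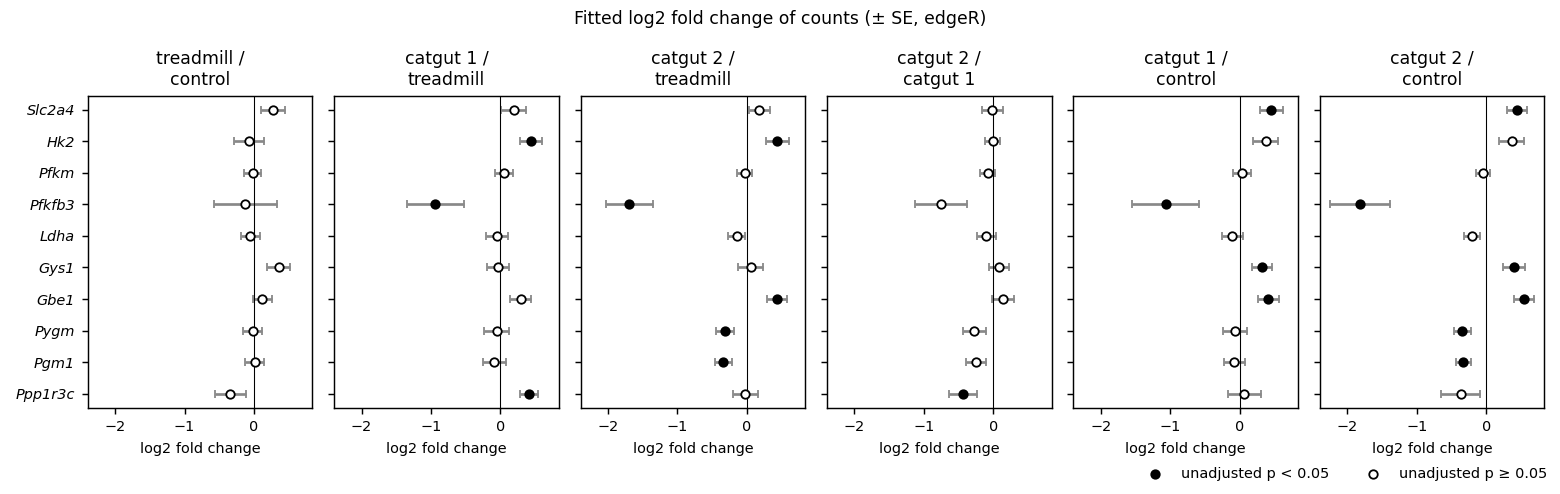
Fitted log2 fold change of counts (horizontal axis) with its standard error for each gene in the 6 comparisons, first group against second. Filled points have an unadjusted p under 0.05. Pfkfb3 lies at -1.69 in catgut 2 against treadmill and -1.82 in catgut 2 against control, and all points of the other 9 genes lie between -0.44 and 0.55.

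Glucose enters through Slc2a4 (ENSRNOG00000017226, chromosome 10, 56552983 to 56558487 on the - strand as the table lists it), which encodes GLUT4. Its level ran from 152 to 240 FPKM in the control group (median 179), 179 to 264 FPKM in the treadmill group (median 210), 197 to 333 FPKM in catgut group 1 (median 257) and 226 to 281 FPKM in catgut group 2 (median 253). The groups overlapped in all comparisons, with 5 of 6 libraries of catgut group 2 above every control library. The mean was 187 ± 31.5 FPKM in the control group and 255 ± 18.7 FPKM in catgut group 2 (SD, n = 6), a log2 fold change of 0.44 (SE 0.142, p = 0.0083, adjusted p = 0.164 by edgeR, exact permutation p = 0.00433). Catgut 1 against control gave a similar 0.45 (SE 0.169, adjusted p = 0.426 by edgeR). Training without thread gave 0.27 (SE 0.174, adjusted p = 0.654 by edgeR). Neither catgut group differed from the treadmill group at an unadjusted p under 0.05 by edgeR. The exact permutation p against treadmill was 0.156 for catgut group 1 and 0.0455 for catgut group 2. Slc2a1, which encodes the basal transporter GLUT1, had group means of 0.932 to 1.53 FPKM, and Slc2a4 made up 99.1% to 99.8% of the sum of both in all libraries.

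Hexokinase 2, from Hk2 (ENSRNOG00000006116, chromosome 4, 113559427 to 113610243, - strand), phosphorylates the glucose that has entered. Its level ran from 11.8 to 23.5 FPKM in the control group (median 18.9), 11.7 to 21.4 FPKM in the treadmill group (median 17.7), 21.1 to 27.7 FPKM in catgut group 1 (median 23.7) and 18.6 to 29.5 FPKM in catgut group 2 (median 23.6). In catgut group 1, 5 of 6 libraries were above every treadmill library, and in catgut group 2 4 of 6 were. The log2 fold change against treadmill was 0.44 (SE 0.158, adjusted p = 0.519 by edgeR) in catgut group 1 and 0.44 (SE 0.165, adjusted p = 0.342 by edgeR) in catgut group 2. The exact permutation p was 0.00433 and 0.0152. Against control, Hk2 gave 0.37 in catgut group 1 (SE 0.177, adjusted p = 0.521 by edgeR) and 0.37 in catgut group 2 (SE 0.184, adjusted p = 0.347 by edgeR). Both had an unadjusted p over 0.05 by edgeR, and the exact permutation p was 0.0303 and 0.0628. Between the catgut groups the difference was -0.01 (SE 0.109), and between treadmill and control it was -0.07 (SE 0.217). Hk1, the isoform of many other tissues, had group means of 2.51 to 2.87 FPKM, and the share of Hk2 in the sum of both was 86.7% ± 4.68 in the control, 86.4% ± 4.66 in the treadmill, 90.4% ± 2.52 in the catgut 1 and 89.1% ± 2.83 in the catgut 2 group (SD, n = 6).

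Of the glycolytic genes, Pfkm and Ldha did not pass an unadjusted p of 0.05 by edgeR in any comparison, while Pfkfb3 did in 4. Pfkm (ENSRNOG00000057988, chromosome 7, 139685573 to 139722132, + strand) encodes the muscle phosphofructokinase, and its group means lay between 1670 and 1759 FPKM. Its log2 fold changes in the 6 comparisons were between -0.08 and 0.05, with standard errors of 0.0975 to 0.135 and no unadjusted p under 0.05. Ldha (ENSRNOG00000013009, chromosome 1, 102900286 to 102909707, + strand) encodes the muscle subunit of lactate dehydrogenase. Its group means were 1963 ± 204 FPKM in the control, 1847 ± 227 FPKM in the treadmill, 1817 ± 257 FPKM in the catgut 1 and 1725 ± 235 FPKM in the catgut 2 group (SD, n = 6). Its largest difference, catgut 2 against control, was -0.20 on the log2 scale (SE 0.115, adjusted p = 0.404 by edgeR). A near copy of Ldha in the table, RGD1562690, had a mean of 112 FPKM and may take some of its reads. Summing both kept the direction of Ldha in the 6 comparisons.

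Pfkfb3 (ENSRNOG00000018911, chromosome 17, 70684134 to 70711224, + strand, 4 transcripts) encodes an enzyme that makes fructose 2,6-bisphosphate, the strongest activator of phosphofructokinase. Its level ran from 24.7 to 117 FPKM in the control group (median 29.7), 18.2 to 71.8 FPKM in the treadmill group (median 48.3), 11.1 to 60 FPKM in catgut group 1 (median 20) and 7.52 to 22.6 FPKM in catgut group 2 (median 15.7). In the control group, replicates 1 and 4 stood at 117 and 93.9 FPKM and the other 4 libraries between 24.7 and 30.5 FPKM.

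All 6 libraries of catgut group 2 were below every control library, a separation found for 1.09% of all genes in that comparison. The log2 fold change was -1.82 (SE 0.429, p = 0.00101, adjusted p = 0.0804 by edgeR, exact permutation p = 0.00216, the smallest that 6 against 6 libraries can give). Against treadmill, 4 of 6 catgut 2 libraries were below every treadmill library, with -1.69 (SE 0.335, p = 0.000233, adjusted p = 0.0651 by edgeR, exact permutation p = 0.00649). DESeq2, run as an alternative, gave these 2 differences adjusted p-values of 0.0102 and 2.14e-05. Both met the DEG criterion without any 1 library, with log2 fold changes of -1.97 to -1.39 and -1.86 to -1.49. Leaving out treadmill replicate 3, the lowest treadmill library for Pfkfb3, brought the adjusted p of the second to 0.0329 by edgeR. Leaving out catgut 2 replicate 4, the highest catgut 2 library, brought that of the first to 0.0461 by edgeR. Both libraries narrow the difference, so leaving either out widens it by construction.

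For catgut group 1 the difference in Pfkfb3 was smaller and rested on single libraries. Against treadmill it was -0.94 (SE 0.409, p = 0.0386, adjusted p = 0.669 by edgeR, exact permutation p = 0.0649), and 2 of 6 libraries were below every treadmill library. The unadjusted p was over 0.05 without treadmill replicate 1, 5 or 6 or catgut 1 replicate 1, 2, 5 or 6, with values from -0.91 to -0.73, and the largest value, -1.30, came without catgut 1 replicate 3, which had 60 FPKM. Against control it was -1.07 (SE 0.484, p = 0.0463, adjusted p = 0.497 by edgeR, exact permutation p = 0.0974). Without control replicate 1 that value moved to -0.62 (adjusted p = 0.71 by edgeR), and without control replicate 4 to -0.90 (adjusted p = 0.649 by edgeR), both with an unadjusted p over 0.05. The call was also lost without catgut 1 replicate 1, 2, 5 or 6, with values from -1.01 to -0.90. Catgut 2 against catgut 1 gave -0.76 (SE 0.37, adjusted p = 1 by edgeR), and the unadjusted p was under 0.05 without catgut 1 replicate 1 or 5 or catgut 2 replicate 4 (-0.88, -0.92 and -0.88). Treadmill against control gave -0.12 (SE 0.448), an error too wide to show whether training alone moved the gene. Pfkfb1 and Pfkfb2, which encode related enzymes, were higher in both catgut groups than in control and treadmill. Against control, Pfkfb2 gave 0.50 in catgut group 1 (SE 0.159, adjusted p = 0.384 by edgeR) and 0.50 in catgut group 2 (SE 0.167, adjusted p = 0.174 by edgeR). Against treadmill, Pfkfb1 gave 0.31 (SE 0.148) and 0.33 (SE 0.143), with adjusted p-values of 0.728 and 0.42 by edgeR.

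Glycogen synthesis is represented by Gys1 (ENSRNOG00000020812, chromosome 1, 101427195 to 101447092, + strand), which encodes muscle glycogen synthase, and by Gbe1 (ENSRNOG00000051232, chromosome 11, 7210209 to 7485211, + strand, 3 transcripts), which encodes the branching enzyme. Gys1 ran from 67.1 to 104 FPKM in the control group (median 86.7), 81.2 to 127 FPKM in the treadmill group (median 108), 89.2 to 124 FPKM in catgut group 1 (median 110) and 94.3 to 136 FPKM in catgut group 2 (median 114). The 3 trained groups lay close together, and all of them overlapped the control group. Above every control library were 5 treadmill libraries and 4 libraries of each catgut group. Against control, the log2 fold change of Gys1 was 0.35 in the treadmill group (SE 0.171). It was 0.32 in catgut group 1 (SE 0.147) and 0.40 in catgut group 2 (SE 0.16). The adjusted p-values were 0.555, 0.502 and 0.234 by edgeR in the same order. The unadjusted p by edgeR was 0.0606 in the treadmill group and under 0.05 in both catgut groups. The exact permutation p was under 0.05 in all of them, at 0.0346 in the treadmill group, 0.0216 in catgut group 1 and 0.013 in catgut group 2.

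Gbe1 ran from 14.2 to 20.7 FPKM in the control group (median 14.8), 14.1 to 18.4 FPKM in the treadmill group (median 17.1), 15.2 to 27.9 FPKM in catgut group 1 (median 20.3) and 18.9 to 27 FPKM in catgut group 2 (median 22.8). All 6 libraries of catgut group 2 were above every treadmill library, a separation found for 1.04% of all genes, and 5 of 6 were above every control library. The log2 fold change of Gbe1 in catgut group 2 was 0.43 against treadmill (SE 0.148, p = 0.0123, adjusted p = 0.279 by edgeR, exact permutation p = 0.00216) and 0.55 against control (SE 0.144, p = 0.00237, adjusted p = 0.112 by edgeR, exact permutation p = 0.00433). DESeq2 gave the second an adjusted p of 0.0165. Without control replicate 2, the highest control library for Gbe1, the ratio of means was 1.55 and the gene met the DEG criterion as well (log2 fold change 0.65, adjusted p = 0.0587 by edgeR). Without catgut 2 replicate 4, the lowest catgut 2 library for Gbe1, the ratio was 1.51, with an adjusted p of 0.0403 by edgeR. Leaving out either of these libraries widens the difference by construction. Without any 1 library the log2 fold change against control ran from 0.45 to 0.65. In catgut group 1 the libraries were spread, replicates 2 and 5 at 27.6 and 27.9 FPKM and replicate 4 at 15.2 FPKM, and Gbe1 differed from control by 0.41 (SE 0.152, adjusted p = 0.425 by edgeR).

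Glycogen breakdown begins with Pygm (ENSRNOG00000021090, chromosome 1, 221756286 to 221771143, + strand), the muscle glycogen phosphorylase, and its product passes through Pgm1 (ENSRNOG00000009889, chromosome 5, 118743632 to 118803055, + strand), phosphoglucomutase. Pygm ran from 3748 to 4976 FPKM in the control group (median 4129), 3445 to 4660 FPKM in the treadmill group (median 4259), 2999 to 4982 FPKM in catgut group 1 (median 4044) and 2691 to 4115 FPKM in catgut group 2 (median 3403). Pgm1 ran from 690 to 876 FPKM, 641 to 897 FPKM, 527 to 877 FPKM and 520 to 715 FPKM in the same order, with medians of 777, 763, 729 and 626. For both genes catgut group 2 was the lowest and overlapped every other group. Against control, the log2 fold change was -0.34 for Pygm (SE 0.123, adjusted p = 0.192 by edgeR) and -0.33 for Pgm1 (SE 0.111, adjusted p = 0.174 by edgeR). Against treadmill it was -0.32 for Pygm (SE 0.125, adjusted p = 0.372 by edgeR) and -0.34 for Pgm1 (SE 0.126, adjusted p = 0.33 by edgeR). Catgut group 1 differed from neither group in these 2 genes at an unadjusted p under 0.05, with log2 fold changes of -0.09 to -0.05 and standard errors of 0.152 to 0.18.

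Ppp1r3c (ENSRNOG00000018494, chromosome 1, 255371810 to 255376833, - strand) encodes a subunit that brings protein phosphatase 1 to glycogen, where it favours synthesis. It ran from 87.6 to 246 FPKM in the control group (median 130), 99.6 to 134 FPKM in the treadmill group (median 112), 112 to 186 FPKM in catgut group 1 (median 169) and 73.9 to 160 FPKM in catgut group 2 (median 124). The groups overlapped, with 4 of 6 catgut 1 libraries above every treadmill library. Catgut 1 against treadmill gave a log2 fold change of 0.41 (SE 0.128, p = 0.00702, adjusted p = 0.405 by edgeR), catgut 2 against treadmill gave -0.02 (SE 0.182), and catgut 2 against catgut 1, whose ranges overlapped, gave -0.44 (SE 0.199, p = 0.0464, adjusted p = 1 by edgeR, exact permutation p = 0.0671).

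The summed level of the 8 slow-fibre markers differed widely between libraries, as given above, and moved with several of these genes. Slow fibres depend on oxidation and fast fibres on glycolysis and stored glycogen. Its median was 238 FPKM in the control, 1016 FPKM in the treadmill, 1688 FPKM in the catgut 1 and 1525 FPKM in the catgut 2 group, with ranges of 42.1 to 1971, 16.5 to 2405, 18.3 to 3647 and 348 to 4791 FPKM. Of the markers, Myl2 was at 0 in 8 libraries and the other 7 were above 0 in all. The difference between catgut group 2 and control was 2.74 on the log2(FPKM + 1) scale (exact permutation p = 0.0368, adjusted p = 0.401 over 54 pairs of marker list and comparison). The 7 fast-fibre markers in the table differed by -0.27 in the same comparison (exact permutation p = 0.0519, adjusted p = 0.401). Markers of other cells were also higher in catgut group 2 than in control, by 0.96 for the erythroid markers (5 of 7 in the table, 327 to 1865 against 309 to 577 FPKM, exact permutation p = 0.0368) and by 0.39 for the adipocyte markers (6 of 6, 469 to 703 against 348 to 690 FPKM, exact permutation p = 0.0433), each with an adjusted p of 0.401. The erythroid difference from control was similar in the treadmill group (0.82, exact permutation p = 0.0519) and catgut group 1 (0.83, exact permutation p = 0.0844). Between catgut group 2 and treadmill it was 0.14. Most of the adipocyte sum was Fabp4 (median 456 FPKM over the libraries), and Cfd came next with a median of 9.58 FPKM. The adipocyte difference thus reads mainly 1 gene. The part of these markers of other cells in the differences of the 10 genes was not tested.

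Across the 24 libraries, Gys1 and Gbe1 were higher and Pygm, Pgm1 and Pfkfb3 lower where the slow-fibre level was higher, all on the log2(FPKM + 1) scale and with permutation p-values adjusted over 11 relations. For Gys1, r was 0.64 (p = 0.0011, adjusted p = 0.00403) and rho 0.63 (p = 0.00136), and for Gbe1 r was 0.56 (p = 0.0031, adjusted p = 0.00682) and rho 0.60 (p = 0.002). For Pygm, r was -0.63 (p = 0.00088, adjusted p = 0.00403) and rho -0.66 (p = 0.0007), and for Pgm1 r was -0.58 (p = 0.00176, adjusted p = 0.00484) and rho -0.61 (p = 0.00164). These relations were of similar size without the 2 libraries farthest from the median slow-fibre level, with r of 0.70, 0.64, -0.61 and -0.60, and after the group means were removed, with 0.57, 0.46, -0.55 and -0.49.
For Pfkfb3, r was -0.51 (permutation p = 0.011, adjusted p = 0.0202) and rho -0.60 (p = 0.00186), -0.62 without the 2 farthest libraries and -0.39 after the group means were removed. It ran from -0.07 in the control group to -0.96 in catgut group 2, with 6 libraries each. Slc2a4 (r = 0.42, permutation p = 0.0442, adjusted p = 0.0695, rho = 0.41, permutation p = 0.0443, and 0.51 without the 2 farthest libraries), Hk2, Pfkm and Ppp1r3c had an adjusted p over 0.05 for both r and rho. For Ldha the measures differed, with r of -0.37 (permutation p = 0.0703, adjusted p = 0.0967), rho of -0.45 (permutation p = 0.0282, adjusted p = 0.0443) and r of -0.44 without the 2 farthest libraries. After the group means were removed, r for Ldha was -0.26. Its sign differed between groups of 6 libraries, with 0.64 in control, -0.07 in treadmill, -0.71 in catgut group 1 and -0.69 in catgut group 2.

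With the slow-fibre level as a covariate, an alternative chosen after seeing the data, the difference of Gys1 between catgut group 2 and control was 0.12 (SE 0.176, adjusted p = 0.834 by edgeR) in place of 0.40, and that of Gbe1 was 0.22 (SE 0.119, adjusted p = 0.461) in place of 0.55. For Pfkfb3 it was -1.58 (SE 0.498, adjusted p = 0.198 by edgeR) against control and -1.56 (SE 0.334, adjusted p = 0.0719) against treadmill in catgut group 2. For Pygm and Pgm1 it was -0.32 and -0.32 against control, with adjusted p-values of 0.425 and 0.364 by edgeR and an unadjusted p under 0.05 for Pgm1 alone. The mean slow-fibre level was higher in catgut group 2 than in control by 2.74 and than in treadmill by 1.65 on the log2(FPKM + 1) scale. The ranges overlapped, with adjusted p = 0.401 and 0.664 by the exact permutation test. As far as the level goes with the group, this fit cannot tell group and fibre level apart. The part of fibre composition in these differences was not tested.

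**Figure D3:**
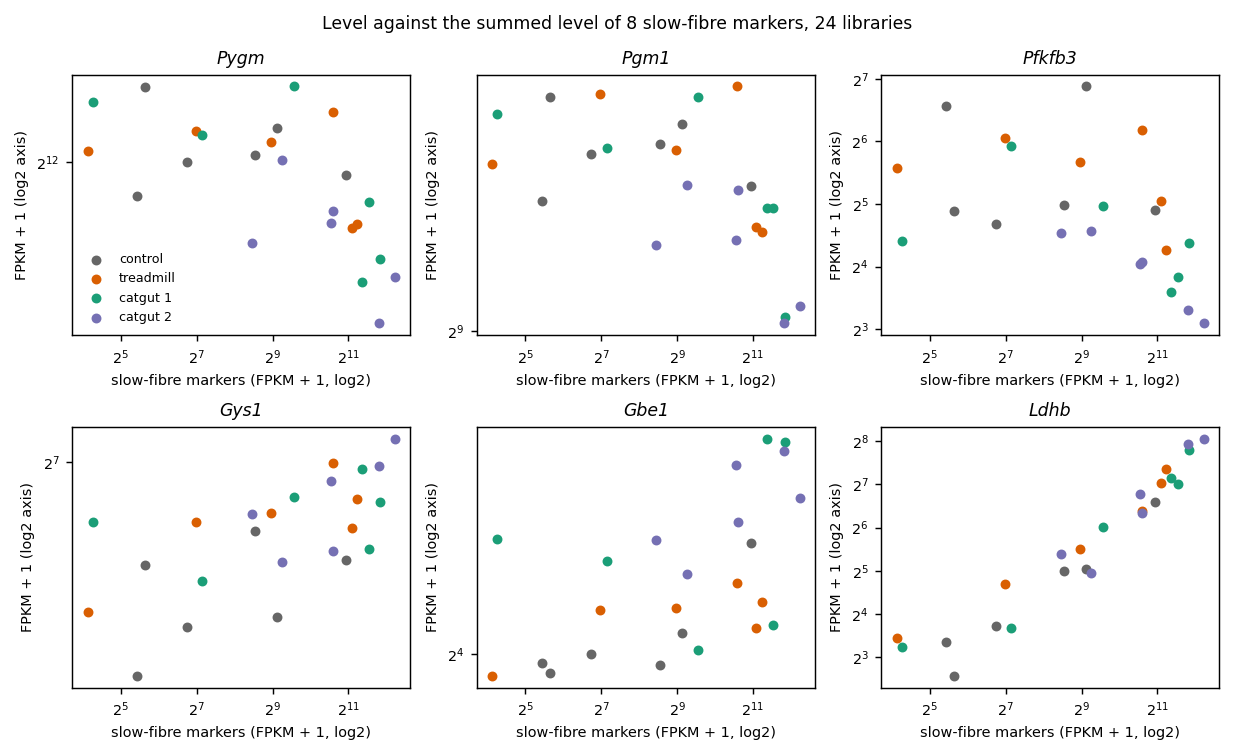
FPKM of 6 genes against the summed FPKM of 8 slow-fibre markers (both plus 1, log2 axes), 1 point per library and colour by group. Pygm, Pgm1 and Pfkfb3 fall to the right, Gys1 and Gbe1 rise, and Ldhb follows the markers most closely (r = 0.96).

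The heart-type subunit of lactate dehydrogenase, Ldhb, had the highest correlation with the slow-fibre level among the 11 genes correlated with it (r = 0.96, rho = 0.96, permutation p = 2e-05 each, the smallest that the resamples can give, and r = 0.97 without the 2 farthest libraries). Ldhb ran from 4.93 to 95.5 FPKM in the control group and from 30 to 266 FPKM in catgut group 2, which is 2.09 on the log2 scale (SE 0.772) with an adjusted p of 0.202 by edgeR. The share of Ldha in the sum of Ldha and Ldhb was 98.5% ± 1.59 in the control, 96% ± 3.32 in the treadmill, 94.7% ± 4.93 in the catgut 1 and 92.8% ± 6.22 in the catgut 2 group (SD, n = 6). For catgut 2 against control the exact permutation p of this share was 0.0238, with an adjusted p of 0.429 over the 18 pairs of share and comparison, none of which passed.

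The rest of the pathway was read from 8 lists with 109 further genes, 103 of them in the table and 98 tested. The lists too were chosen with earlier results known, so their shares cannot show that these genes differ more often than others. In treadmill against control, 0 met the DEG criterion (background 2.85%), and 10.2% had an unadjusted p under 0.05 (2 higher and 8 lower), near the 9.12% of all genes. In catgut 1 against treadmill, 3 genes met it, all higher (3.06%, background 3.12%), and in catgut 2 against treadmill 4, all higher (4.08%, background 3.76%). Catgut 2 against catgut 1 gave 2 higher (2.04%, background 1.25%), catgut 1 against control 2 higher (2.04%, background 4.62%), and catgut 2 against control 4 higher and 1 lower (5.1%, background 5.95%). The median log2 fold change of the 98 genes was between -0.04 and 0.01 in the 6 comparisons, beside -0.01 to 0.01 for all genes tested. At an unadjusted p under 0.05, 31.6% of the 98 passed in catgut 2 against control, 17 higher and 14 lower, against 16.4% of all genes, and in the other 5 comparisons the share was 4.08% to 14.3%, against 3.26% to 10.7%. At that p, catgut 1 against treadmill gave 8 higher and 0 lower, and catgut 2 against treadmill gave 6 higher and 6 lower.

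Pdp1, which encodes the phosphatase that switches on pyruvate dehydrogenase, was the 1 gene of the 98 with an adjusted p under 0.05 in a comparison. It ran from 14.7 to 24.5 FPKM in the treadmill group (median 18.6), 24.8 to 40.3 FPKM in catgut group 1 (median 30) and 25.3 to 38 FPKM in catgut group 2 (median 34.1), so that both catgut groups lay wholly above the treadmill group. Against treadmill the log2 fold change was 0.72 in catgut group 1 (SE 0.143, adjusted p = 0.126 by edgeR) and 0.78 in catgut group 2 (SE 0.122, adjusted p = 0.023 by edgeR). In the control group it ran from 16.1 to 36.9 FPKM and overlapped all 3 others.

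Klf15, a glucocorticoid-responsive transcription factor that promotes Slc2a4 expression, ran from 11.3 to 22.8 FPKM in the treadmill group (median 15.1), 19.6 to 31.1 FPKM in catgut group 1 (median 25.2) and 20.6 to 30.7 FPKM in catgut group 2 (median 23.6). The groups overlapped by few libraries, with 5 of 6 and 3 of 6 above every treadmill library. The log2 fold change of Klf15 against treadmill was 0.70 (SE 0.112, adjusted p = 0.0529 by edgeR) and 0.67 (SE 0.127, adjusted p = 0.058 by edgeR), and in the test among the 4 groups its adjusted p was 0.0251. Aldoc, an aldolase better known from brain, was low and lay wholly above treadmill in catgut group 2 (1.59 to 2.83 against 0.702 to 1.42 FPKM), with 1.06 (SE 0.22, adjusted p = 0.0779 by edgeR), and it was 0.84 higher in catgut group 1 (SE 0.235, adjusted p = 0.346 by edgeR). Aldoa, another aldolase gene at a far higher level, lay wholly below treadmill in catgut group 2 (9787 to 10547 against 11190 to 12758 FPKM). Its log2 fold change there was -0.26 (SE 0.1, adjusted p = 0.349 by edgeR). Klf15 and Aldoc had lower means in the treadmill group than in the control group, with log2 fold changes of -0.30 for Klf15 (SE 0.129) and -0.49 for Aldoc (SE 0.206), each with an adjusted p of 0.526 by edgeR. Against control the catgut groups differed less, with 0.40 and 0.36 for Klf15 and 0.35 and 0.57 for Aldoc in catgut groups 1 and 2, and none met the DEG criterion. Ppp1r3d, a relative of Ppp1r3c, met the DEG criterion in catgut 2 against treadmill, with 0.59 (SE 0.196, adjusted p = 0.268 by edgeR).

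**Figure D4:**
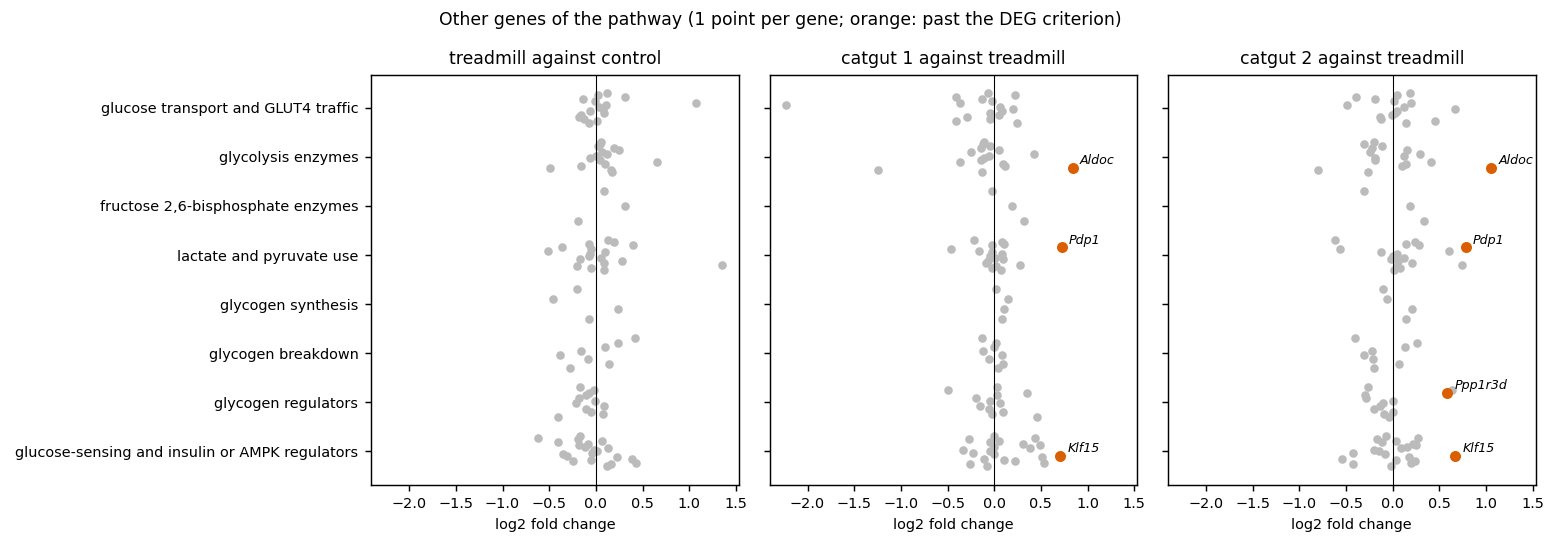
Fitted log2 fold change (horizontal axis) of the 98 other pathway genes, 1 point per gene, in rows by list, for the 3 comparisons of the study. Orange points met the DEG criterion, 0 in treadmill against control, 3 in catgut 1 against treadmill and 4 in catgut 2 against treadmill.

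Against control, Arrdc4, a glucose-induced arrestin that limits glucose uptake, met the DEG criterion in both catgut groups, with 0.96 (SE 0.209, adjusted p = 0.209 by edgeR) and 0.63 (SE 0.198, adjusted p = 0.162 by edgeR). Irs2, which carries the insulin signal, met it in catgut group 1 (0.74, SE 0.246, adjusted p = 0.401 by edgeR). In catgut group 2, Ldhb, Slc2a1 (0.74, SE 0.277) and Pdp2, a second pyruvate dehydrogenase phosphatase (0.67, SE 0.294), were higher. Phkb, a regulatory subunit of phosphorylase kinase, was lower (-0.69, SE 0.224), and adjusted p-values in this group were 0.166 to 0.273 by edgeR. Treadmill against control gave 0.43 for Arrdc4 (SE 0.205), 0.22 for Irs2 (SE 0.164) and 1.35 for Ldhb (SE 0.784). It gave 0.07 for Slc2a1 (SE 0.287), 0.40 for Pdp2 (SE 0.254) and -0.38 for Phkb (SE 0.152). None of these genes met the criterion in either catgut group against treadmill. Between the catgut groups, Pdk3 and Ppp1r3e met the criterion at levels under 1 FPKM, with an adjusted p of 1.

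The 10 genes did not vary as 1 block. Over the 24 libraries, on the log2(FPKM + 1) scale and as a description, Pygm and Pgm1 were closest (r = 0.93), followed by Ldha with Pgm1 (0.84), Slc2a4 with Gys1 (0.84), Ldha with Pygm (0.82) and Pfkm with Ldha (0.79). These 5 were 0.91, 0.85, 0.78, 0.82 and 0.85 after the group means were removed. Pfkfb3 went with Pygm (0.65) and Pgm1 (0.65) and against Slc2a4 (-0.62), Gbe1 (-0.61), Hk2 (-0.60) and Gys1 (-0.58). The points share library depth and fibre composition.

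The closest genes were sought among those with a symbol out of the 10475 with a mean of at least 1 FPKM. The closest to Pygm were Actn3 (r = 0.96), the fast-fibre alpha-actinin, and Mybpc2 (0.94), a fast-fibre myosin-binding protein. Pgm1 was close to Gpd1 (0.93) and Pvalb (0.90), the calcium buffer of fast fibres. Ldha lay closest to its near copy RGD1562690 (0.94) and to the glycolytic genes Gpi (0.90) and Eno3 (0.88), and Pfkm to Pgk1 (0.81). Gys1 lay closest to Got1 (0.89), Hspb6 (0.87) and Slc25a11 (0.86), and Slc2a4 besides Gys1 to Slc46a3 (0.81) and Hyal1 (0.79). Pfkfb3 lay closest to Jph2 (0.85), which joins the tubular and reticular membranes, to AABR07035818 (0.84) and to Cdk2ap1 (0.83). The closest genes were Ppp2r1a (0.84), Pacsin2 (0.82) and the lactate transporter gene Slc16a1 (0.81) for Gbe1, Myadml2 (0.73), Map2k3 (0.72) and Tnks (0.71) for Hk2, Neurl1 (0.76) after Pgk1 and Ldha for Pfkm, and Myf6 (0.74), Art3 (0.72) and Rnf139 (0.70) for Ppp1r3c.

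The liver markers were lower in catgut 1 and catgut 2 than in treadmill, with differences of -2.83 and -2.68 on the log2(FPKM + 1) scale (exact permutation p = 0.00649 and 0.0108, adjusted p = 0.292 for both). The 3 libraries with the highest sums of liver markers were left out together as an alternative chosen after seeing the data. Treadmill replicates 5 and 6, at 3.82 and 5.4 FPKM of these markers, stayed in, while no catgut library exceeded 0.725 FPKM. Pfkfb3 was then -1.96 in catgut 2 against treadmill (SE 0.297, adjusted p = 0.0447 by edgeR) and -1.94 against control (SE 0.434, adjusted p = 0.075), and -1.20 and -1.18 in catgut group 1. In treadmill against control, Gys1 was 0.49 (SE 0.169, adjusted p = 0.337 by edgeR) in place of 0.35 and Gbe1 0.31 (SE 0.0968, adjusted p = 0.32 by edgeR) in place of 0.12. Gbe1 in catgut 2 against control was 0.65 (adjusted p = 0.0587 by edgeR). In the comparisons of a catgut group with control, only control replicate 2 is left out here. These values therefore repeat the fit without that library alone and are not a second check.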

How the data were processed

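The authors sequenced poly(A) mRNA and deposited 1 table of 21067 genes, with counts (whole numbers) and FPKM for each library. The submitters' processing notes name HISAT2 2.0 and StringTie 1.3.0. The genome build is not given in the sources used here, so table coordinates are printed as listed. The commonest deposited counts above 0 were 4 and 8, so 1 fragment may add about 4 counts. The deposited counts were used as listed, and dividing by 4 was an alternative. Genes averaging 0.1 FPKM or more were tested with edgeR 4.0.16 (R 4.3.3), TMM scaling and the 2 groups of each comparison alone. Exact permutation tests were two-sided on log2(FPKM + 1) over all 924 arrangements, and correlations used 100000 resamples. Alternatives were DESeq2 1.42.0, limma 3.58.1, other filters and scaling, 1 fit over 4 groups, covariates, the replicate block and leaving out each library. The steps were tested on simulated data. Named pathway genes met the DEG criterion, had an adjusted p under 0.05 or are named beside a related gene. The 3 genes most like each of the 10 were taken by Pearson correlation. The 10 genes and the lists were chosen with earlier results of these data known. Promoters came from RefSeq (GRCr8). Listed genes whose symbol was not found in the table were not analysed here.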

Additional observations from a re-analysis of the deposited data

Results flagged for a closer look

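In 1 of the 40 groups of 6 libraries formed by 10 genes and 4 groups, a single library stood apart by Dixon's test. Gbe1 in control replicate 2 was at 20.7 FPKM, and its gap to the next control library was 0.728 of the group's range. Chance gives about 1 such case in 20 groups. The same library held 201 FPKM of liver markers and the highest slow-fibre level of the control group, 1971 FPKM, and their part in the value was not tested.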

How the results depend on the processing

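Of the 60 pairs of gene and comparison, the 19 with an unadjusted p under 0.05 were followed one by one, and none changed direction in any alternative, while 401 values, among them 6 for the Ldha sum, stayed on the same side of 0.05 and 60 did not.

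Counts that moved were these. The number of the 10 genes that met the DEG criterion in catgut 1 against control was 0 in place of 1 with DESeq2, with limma on log2(FPKM + 1) and on log2(FPKM + 0.1), with the replicate block and with the slow-fibre covariate. It was 0 in catgut 1 against treadmill with the block and 1 in catgut 2 against catgut 1 with the Y-linked level as covariate. It was 2 in catgut 2 against control without the 3 libraries with the highest sums of liver markers, of which only control replicate 2 is in that comparison. With an adjusted p under 0.05, DESeq2 called 1 gene in catgut 2 against treadmill and 2 in catgut 2 against control, and the fit without those 3 libraries called 1 in catgut 2 against treadmill. Of the 98 other pathway genes, treadmill against control gave 1 without a filter, with DESeq2, with both limma fits and with the Y-linked covariate, 2 with the slow-fibre covariate and 4 without the 3 libraries, in place of 0. Without those libraries catgut 1 against treadmill gave 6, catgut 2 against treadmill 7 and catgut 1 against control 5, in place of 3, 4 and 2. The last of these is the fit without control replicate 2 alone. Catgut 2 against catgut 1 gave 0 when only genes averaging 1 FPKM or more were tested and 1 with both limma fits, the Y-linked covariate, the block and the slow-fibre covariate, in place of 2. Catgut 2 against control gave 3 with the block and 2 with the slow-fibre covariate, in place of 5. Beyond what the construction shows (fewer libraries or genes), the cause was not tested.

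Without 1 library at a time, the 10 genes gave 0 to 1 DEGs in catgut 1 against treadmill, catgut 1 against control and catgut 2 against catgut 1, and 1 to 2 in catgut 2 against control. Adjusted calls were 0 to 1 in catgut 2 against treadmill and 0 to 2 in catgut 2 against control. The other pathway genes gave 0 to 3 in treadmill against control, 3 to 8 in catgut 1 against treadmill and catgut 2 against treadmill, 1 to 4 in catgut 2 against catgut 1, 1 to 5 in catgut 1 against control and 3 to 9 in catgut 2 against control. The highest came without treadmill replicate 2 (3, 8 and 8, with 3 also without control replicate 2), catgut 2 replicate 4 (4 and 9) and control replicate 2 (5).

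Replicate numbers carry no stated pairing. Same-numbered libraries deviated together with r of -0.49 to 0.28, over 0.1 in 9 of 36 pairs, and 0 of 24 libraries correlated best with its own number in every other group. The replicate block is therefore only a description, and Pfkfb3 had -1.61 in catgut 2 against treadmill and -1.58 in catgut 2 against control with it. The lowest count of any of the 10 genes in a library was 1987, so counting error is small.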
